A study of Mus musculus with 16 samples.

Results

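Interferon regulatory factors (IRFs) and signal transducers and activators of transcription (STATs) are transcription factors that act downstream of cytokine receptors and sensors of foreign nucleic acid. The genes Irf1, Irf5, Irf7, Irf8, Irf9, Stat2, Stat3 and Stat6, together with Socs1, which encodes a feedback inhibitor of STAT signalling, were followed in CD11b+ cells sorted from mouse tumours. They were chosen by gene symbol with earlier results of these data known, so comparisons of their shares with all genes are descriptions. All 9 were found among the 24421 genes counted and kept among the 9642 genes tested.

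The cells came from MC38-Ova tumours, a mouse colon carcinoma line that carries ovalbumin, grown in Kaede transgenic mice on the C57BL/6 background. Kaede is a fluorescent protein that light converts from green to red, so that after the tumour is illuminated, cells that stay in it are red (Kaede-red) and host cells that enter later are green (Kaede-green). Viable CD45+, Kaede+ and CD11b+ cells that lacked TER119 and NK1.1 were sorted 24h or 72h after photoconversion and sequenced as bulk total RNA. Each combination of colour and time held 4 libraries, 16 in all, every one labelled as control and with the same batch label. Red marks presence in the tumour at the time of illumination and not the time of entry, so a Kaede-red cell may have entered at any time before it. Per the study's supplement the libraries are tumours from independent mice, read here as separate mice within a colour and time. The p-values take the 16 libraries as independent and measure the spread between them. Whether a green and a red library of the same number came from 1 tumour is not given in the sources used here.

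In this pathway a cytokine binds its receptor, the receptor's Janus kinases (JAKs) phosphorylate STAT proteins, and these move to the nucleus. Type I interferons act through a complex that holds STAT2 and IRF9 and binds the interferon-stimulated response element (ISRE). STAT dimers bind the γ-activated site (GAS), and interferon γ induces IRF1. STAT3 transmits interleukin 6 and interleukin 10, and STAT6 transmits interleukin 4 and interleukin 13 and is known for the alternatively activated state of macrophages. IRF5 and IRF7 act below Toll-like receptors in the induction of inflammatory cytokines and of type I interferon. IRF8 directs the development of monocytes, macrophages and dendritic cells.

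The upstream sequences of 6 of these genes are printed because their transcripts differed between groups in 1 of the comparisons that follow or because they hold the motifs searched for. Each is the 250 bases before the annotated start of transcription, on the strand of the gene, from the RefSeq promoter table of GRCm38.p6, in which all 9 genes were matched with 12 starts. Capitals mark letters that match the ISRE motif (GAAA, any 2 bases, GAAA), searched on both strands, or the GAS motif TTCNNNGAA, which reads the same on both strands.
Irf1, chr11:53769764-53770013, plus strand: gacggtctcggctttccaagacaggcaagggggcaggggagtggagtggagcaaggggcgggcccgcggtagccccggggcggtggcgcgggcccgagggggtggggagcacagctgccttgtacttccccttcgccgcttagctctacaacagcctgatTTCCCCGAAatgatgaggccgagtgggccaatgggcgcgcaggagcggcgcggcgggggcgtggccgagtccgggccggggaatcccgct
Irf8, chr8:120736108-120736357, plus strand: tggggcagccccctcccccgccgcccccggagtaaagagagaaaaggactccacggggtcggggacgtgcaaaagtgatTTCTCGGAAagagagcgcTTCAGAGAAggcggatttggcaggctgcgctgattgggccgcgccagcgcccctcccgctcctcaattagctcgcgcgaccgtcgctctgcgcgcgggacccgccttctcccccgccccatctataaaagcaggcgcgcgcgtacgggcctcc
Stat2, chr10:128270248-128270497, plus strand: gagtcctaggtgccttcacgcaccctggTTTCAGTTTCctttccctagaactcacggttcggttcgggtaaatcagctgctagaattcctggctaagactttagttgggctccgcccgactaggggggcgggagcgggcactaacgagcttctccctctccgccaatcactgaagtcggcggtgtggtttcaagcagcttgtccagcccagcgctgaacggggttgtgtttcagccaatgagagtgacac
Stat3, chr11:100939541-100939790, minus strand: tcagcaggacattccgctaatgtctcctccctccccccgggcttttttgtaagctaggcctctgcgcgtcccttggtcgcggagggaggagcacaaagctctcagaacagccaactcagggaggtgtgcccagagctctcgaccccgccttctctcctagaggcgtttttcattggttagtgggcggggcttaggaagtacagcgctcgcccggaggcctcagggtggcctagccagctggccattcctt
Stat6, chr10:127642736-127642985, plus strand: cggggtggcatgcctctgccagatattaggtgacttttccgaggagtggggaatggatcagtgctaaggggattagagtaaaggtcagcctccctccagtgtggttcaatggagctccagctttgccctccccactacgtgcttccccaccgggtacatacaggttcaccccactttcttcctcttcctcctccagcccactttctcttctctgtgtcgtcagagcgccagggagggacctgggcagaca
Socs1, chr16:10785537-10785786, minus strand: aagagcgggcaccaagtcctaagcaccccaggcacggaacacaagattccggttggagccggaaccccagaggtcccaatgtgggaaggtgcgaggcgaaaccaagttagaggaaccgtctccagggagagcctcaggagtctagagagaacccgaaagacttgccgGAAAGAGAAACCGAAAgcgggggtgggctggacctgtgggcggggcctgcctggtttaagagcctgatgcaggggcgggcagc

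The Irf1 sequence held 1 GAS match, 90 to 82 bases before the start, and the Irf8 sequence held 2, of which the first began 171 and the second 153 bases before it. Stat2 held 1 ISRE match on the opposite strand, 222 to 213 bases before the start. Socs1 held 2 ISRE matches, 83 to 74 and 77 to 68 bases before the start, which share 4 letters. Neither motif was found in these windows of Irf5, Irf7, Irf9, Stat3 and Stat6, or of the further starts of Irf1 and Irf8. Thus 4 of the 12 promoters of these genes held a match, each of another gene, compared with 9.66% of the 32851 promoters in the table, of which 2.98% held the ISRE and 7.02% the GAS letters. A match of letters is a description and not a binding site.

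The genes lie at separate places of mm10. Irf1 lies on chromosome 11 from 53770014 to 53778374 (plus strand), Irf5 on chromosome 6 from 29526625 to 29541871 (plus), Irf7 on chromosome 7 from 141262706 to 141266481 (minus) and Irf8 on chromosome 8 from 120736358 to 120756694 (plus). Irf9 lies on chromosome 14 from 55603571 to 55610030 (plus), Stat2 on chromosome 10 from 128270559 to 128292849 (plus) and Stat6 on the same chromosome from 127642986 to 127660957 (plus). Stat3 lies on chromosome 11 from 100885098 to 100939540 (minus) and Socs1 on chromosome 16 from 10782240 to 10785536 (minus). In the GENCODE annotation Stat2 and Socs1 overlapped no other gene. Irf5 overlapped Tnpo3, Irf7 overlapped Phrf1, Stat3 overlapped Stat5a and Stat6 overlapped Nab2 on the opposite strand, and Irf9 overlapped Rnf31 on its own strand. Irf1 and Irf8 overlapped Gm17334 and Gm20388, which were not analysed here. How strand and shared reads were treated in the counting is not given in the sources used here, so counts of these genes may hold reads of their neighbours.

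Between 3216858 and 15423085 reads were counted per library, of which the ribosomal RNA gene Rn45s took 79.0 to 93.4% in Kaede-green and 55.8 to 84.9% in Kaede-red libraries. Outside Rn45s, 468092 to 912689 reads remained per Kaede-green library and 758192 to 5472477 per Kaede-red library. In the Kaede-red group at 24h the Rn45s share was 66.2% and 68.2% in replicates 1 and 2 and 83.1% and 84.9% in replicates 3 and 4. The last pair therefore lay closer to the Kaede-green libraries, and the calls that rest on Kaede-red cells at 24h are also given without it, a choice made after the values were seen. Levels are given as CPM, in which reads are divided by a library total that edgeR's TMM factors correct. These factors are set by most genes and not by Rn45s. The 9 genes together had 681 to 1474 reads in each Kaede-green library and 1418 to 21354 in each Kaede-red library. The lowest counts were those of Socs1, with 11 to 44 reads per Kaede-green library and 26 to 348 per Kaede-red library.

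The labels call the sorted cells macrophages. All 9 markers of macrophages and monocytes examined, Ptprc, Itgam, Adgre1, Csf1r, Cd68, Lyz2, Fcgr1, Ly6c2 and Ccr2, were counted in every library, with a summed level of 823 CPM at the least. Markers of neutrophils summed to at most 22.4 CPM, and those of tumour epithelium, lymphocytes and either kind of dendritic cell to at most 12.4 CPM. Of their defining genes, Retnlg, Camp, Siglech and Krt8 had no read in 14 of the 16 libraries and Krt18 in 15. The neutrophil markers Csf3r (12 to 726 reads) and Mmp8 (1 to 134 reads) and the plasmacytoid dendritic cell marker Tcf4 (10 to 498 reads) were counted in every library, and the other 4 plasmacytoid markers had at most 5 reads in a library. Fibroblast markers, led by Col1a1 and Col3a1, summed at 24h to 40.3 to 52.3 CPM in green and 19.7 to 37.4 CPM in red libraries, and at 72h to 45.5 to 49.9 and 11.9 to 19.2 CPM. Markers of endothelial cells summed at 24h to 10.04 to 15.98 CPM in green and 17.8 to 22.5 CPM in red libraries, and at 72h to 9.77 to 19.0 and 21.9 to 36.7 CPM. At 72h markers of neutrophils summed to 10.4 to 12.2 CPM in green and 17.8 to 22.4 CPM in red libraries, those of plasmacytoid dendritic cells to 3.97 to 7.54 and 8.62 to 12.4 CPM, and those of dividing cells to 32.5 to 51.0 and 19.2 to 26.6 CPM. The part of these cells in the differences between the colours was not tested. In bulk RNA, fewer cells of a type and less RNA per cell cannot be told apart.

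Per kilobase of exon, Irf7 had the highest level of the 9 genes, 38.0 ± 8.53 CPM per kb (mean ± SD, n = 16). Irf5 followed with 15.03 ± 4.98, Irf1 with 10.9 ± 2.12 and Stat2 with 8.77 ± 1.71 CPM per kb. Irf9 (4.43 ± 1.07), Stat6 (4.08 ± 1.25), Irf8 (3.47 ± 0.971), Socs1 (2.90 ± 1.34) and Stat3 (2.34 ± 0.988) had levels within about their SD of the next gene. Irf7 alone took 32.2 to 44.1% of the reads of the 9 genes in a library. In the plot of levels by library, the 72h Kaede-red group holds the highest mean of all 9 genes but Socs1, whose highest mean is that of Kaede-green cells at 24h.

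**Figure D1:**
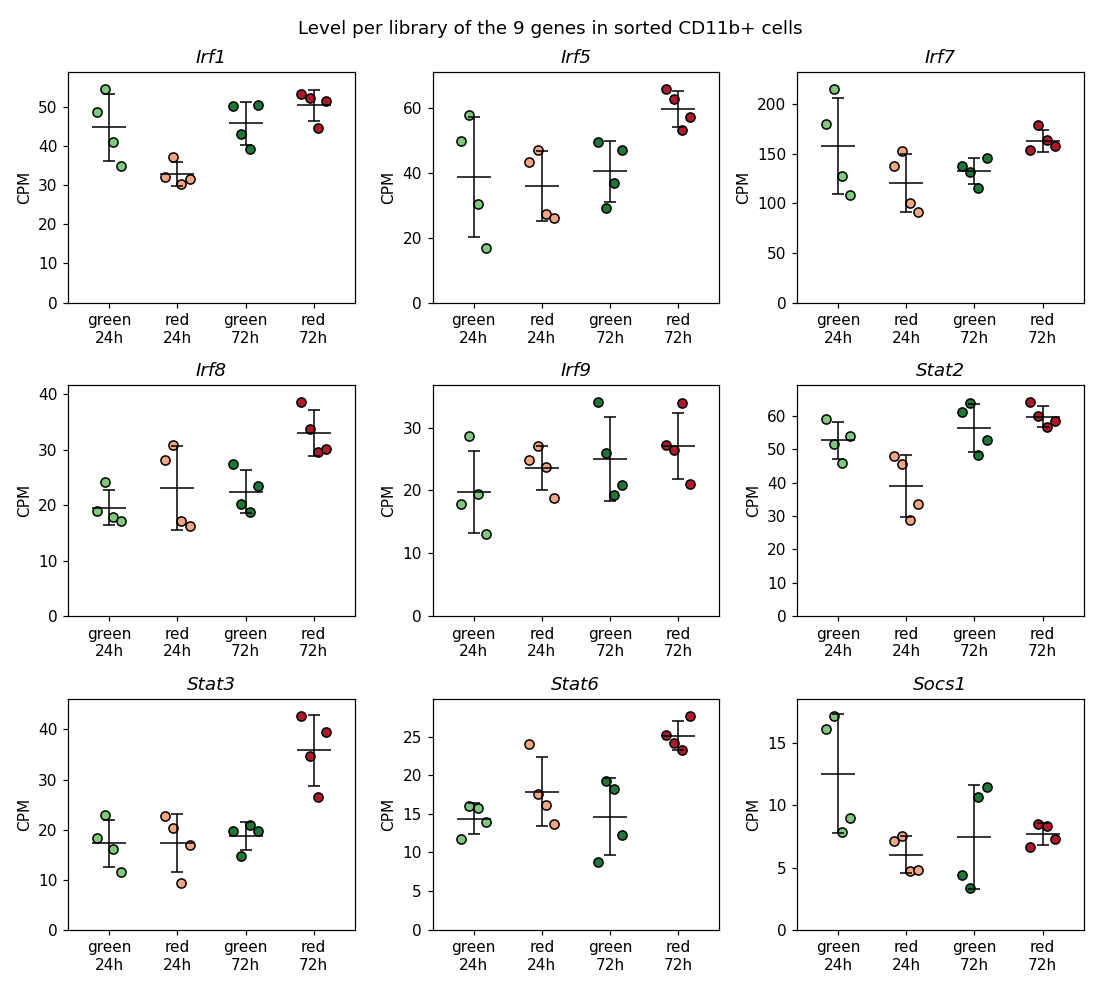
Level of each of the 9 genes in CPM (vertical axis, from 0, a scale of its own for each gene) in the 4 groups of 4 libraries. Points are libraries in the order of their replicate numbers, and the horizontal line and bars are the mean and SD; Stat3 in Kaede-red cells at 72h (26.5 to 42.7 CPM) lies above all 12 other libraries.

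The first question was how cells present in the tumour since photoconversion differed from newly entered cells. At 72h, Stat3 and Stat6 were higher in Kaede-red than in Kaede-green cells, by 1.91-fold and 1.71-fold. No gene of the 9 was called lower, and 7 did not pass the test. Called means an adjusted p under 0.05 in the quasi-likelihood test of edgeR, with p-values adjusted over all 9642 genes, and 8.06% of all tested genes were called higher and 8.76% lower in the same comparison. The log2 fold change was above 0 for all 9 genes, with a median of 0.30 against 0.03 over all genes tested. That of Socs1 was near 0. With DESeq2, another test, 8 genes were above 0, and with the Rn45s share as a covariate 4 were.

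Stat3 had 19.7, 14.7, 20.9 and 19.8 CPM in the Kaede-green libraries at 72h and 42.7, 34.7, 26.5 and 39.4 CPM in the Kaede-red libraries. The lowest red library lay above the highest green library, so the groups did not overlap. The log2 fold change was 0.94 (standard error, SE, 0.24, 95% interval 0.47 to 1.40, adjusted p = 0.00539). The call was kept when any 1 of the 16 libraries was left out, with adjusted p-values of 0.00225 to 0.0368.

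Stat6 had 8.77, 19.2, 18.2 and 12.2 CPM in the Kaede-green libraries at 72h and 25.2, 24.2, 23.3 and 27.7 CPM in the Kaede-red libraries. These groups did not overlap either, and the spread was wider in the green group. For Stat6 this was a log2 fold change of 0.77 (SE 0.23, adjusted p = 0.0158). Without Kaede-green replicate 1, its lowest library, it was 0.60 with an adjusted p of 0.0808, and it stayed under 0.05 in the other 15 fits that left out 1 library.

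Irf5, Irf7 and Irf8 also had every Kaede-red library above every Kaede-green library at 72h but were not called. Together with Stat3 and Stat6, 5 of the 9 genes did not overlap in this direction, against 13.0% of all tested genes. Irf8 had 18.7 to 27.4 CPM in green and 29.5 to 38.5 CPM in red libraries, a log2 fold change of 0.56 (SE 0.22, adjusted p = 0.0713), and it was called without Kaede-red replicates 3 and 4 at 24h (adjusted p = 0.0499), which enter this fit through the shared spread. It was also called with no filter (adjusted p = 0.0281), with a minimum of 10 counts (0.0231) and in a fit of the 72h groups alone (0.0437). Irf5 had 29.0 to 49.3 and 53.1 to 65.8 CPM, with a log2 fold change of 0.56 (adjusted p = 0.132), and was called with no filter (0.71, adjusted p = 0.0186). A replicate block, which treats libraries of the same number as pairs, called Irf5 (0.58, adjusted p = 0.0349) and Irf8 (0.56, adjusted p = 0.0436). Whether the numbers mark pairs is not given in the sources used here. Irf7 had 115 to 146 and 153 to 178 CPM, with a log2 fold change of 0.30 (adjusted p = 0.357).

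For Irf1, Irf9, Stat2 and Socs1 the libraries of both colours overlapped at 72h. Irf1 had a log2 fold change of 0.14 (95% interval -0.21 to 0.50), Irf9 of 0.12 (-0.32 to 0.56) and Stat2 of 0.08 (-0.28 to 0.45). Socs1 had 3.36 to 11.4 CPM in green and 6.65 to 8.50 CPM in red libraries, with an interval of -0.61 to 0.61 around a change near 0. With 4 libraries a group, changes within these intervals are compatible with the data.

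At 24h Socs1 was lower in Kaede-red cells and no gene of the 9 was called higher. Of all tested genes, 4.28% were called lower and 3.22% higher in this comparison. Socs1 had 16.2, 17.2, 7.90 and 8.997 CPM in the Kaede-green libraries and 7.11, 7.54, 4.72 and 4.78 CPM in the Kaede-red libraries. All red libraries lay below all green libraries, as for 5.43% of all tested genes, although the highest red and the lowest green library were close.

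The log2 fold change of Socs1 at 24h was -1.02 (SE 0.32, adjusted p = 0.0460), a level 2.03-fold lower in red cells. With library totals alone, which moved the median of all genes to 2.35, the change of Socs1 was 1.31, so its direction here is relative to most genes. The call rested on single libraries. It was lost without Kaede-green replicate 1 or 2 at 24h, without any of the 4 Kaede-red libraries at 24h, and without Kaede-red replicate 1, 2 or 3 at 72h, which enter through the shared spread. Across all 16 fits that left out 1 library the log2 fold change stayed between -1.23 and -0.81 and the adjusted p ranged from 0.0269 to 0.173. Without Kaede-red replicates 3 and 4 together it was -0.73 (adjusted p = 0.312).

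Irf1, Stat2 and Irf7 had log2 fold changes of -0.44, -0.43 and -0.39 at 24h without passing the test (adjusted p = 0.155, 0.189 and 0.301). Irf1 had 34.8 to 54.5 CPM in green and 30.3 to 37.1 CPM in red libraries, and Stat2 had 45.9 to 59.1 and 28.7 to 48.0 CPM. In each of these the groups overlapped. Stat3 differed by 0.03 (95% interval -0.46 to 0.52), with 11.5 to 22.9 CPM in green and 9.25 to 22.7 CPM in red libraries. Stat6 differed by 0.30 (-0.16 to 0.77), Irf8 by 0.24 (-0.20 to 0.69), Irf9 by 0.25 (-0.21 to 0.71) and Irf5 by -0.09 (-0.61 to 0.43).

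**Figure D2:**
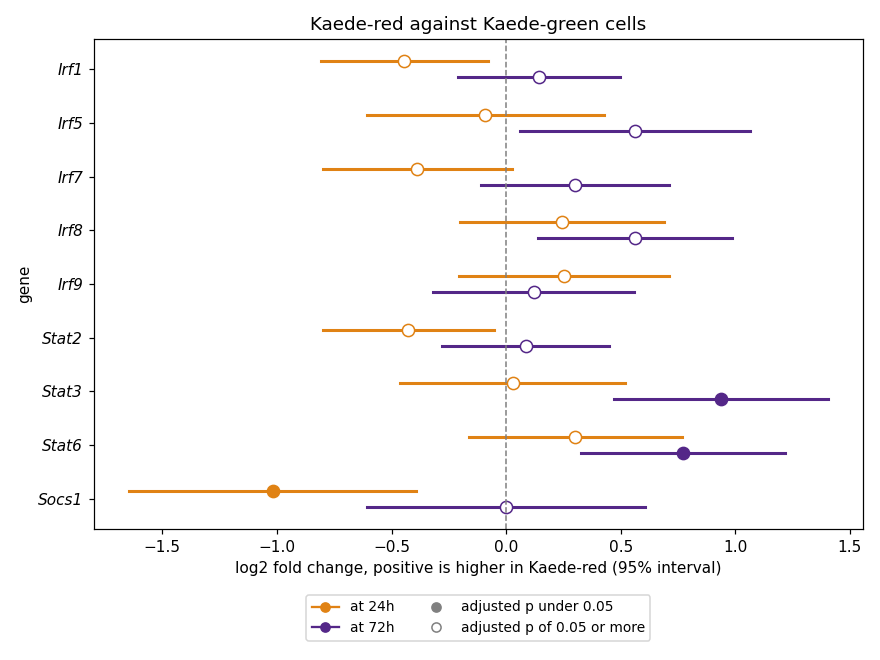
Log2 fold change of Kaede-red against Kaede-green cells (horizontal axis) for the 9 genes at 24h (orange) and 72h (purple), with 95% intervals as bars and filled points for an adjusted p under 0.05. Socs1 at 24h is the filled point to the left of 0 and Stat3 and Stat6 at 72h are those to the right.

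Over both times together, Stat3 and Stat6 were called higher in Kaede-red cells and no gene lower, while 20.3% of all tested genes were called in either direction. Stat6 had a log2 fold change of 0.54 (SE 0.16, adjusted p = 0.0182). Its call was lost without Kaede-red replicate 1 at 24h (adjusted p = 0.0578) or without Kaede-green replicate 1 at 72h (adjusted p = 0.0508). Stat3 had a log2 fold change of 0.48 (SE 0.17, adjusted p = 0.0452). Its call was kept only without Kaede-green replicate 2 at 24h, Kaede-red replicate 3 at 24h, Kaede-green replicate 4 at 72h or Kaede-red replicate 3 at 72h, and with any other library left out the adjusted p was 0.0541 to 0.114. Irf8 had a log2 fold change of 0.40 (adjusted p = 0.0665) and was called when Kaede-red replicates 3 and 4 at 24h were left out (0.58, adjusted p = 0.00672).

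The second question was how the cells of each colour differed between 24h and 72h. Per the study's methods, tumours were photoconverted on the same day after injection, so those taken at 72h were older. Time since photoconversion, tumour age and the loss of red cells from the tumour cannot be told apart here. In Kaede-red cells Irf1, Stat2 and Stat3 were called higher at 72h and no gene of the 9 lower, with 4.92% of all tested genes called higher and 3.76% lower. The log2 fold change was above 0 for all 9 genes, with a median of 0.51 against -0.01 over all tested genes. In Kaede-green cells no gene was called among the 9 or among all 9642 tested, where 8.66% had an unadjusted p under 0.05 and DESeq2 called 13 genes.

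Stat3 had 22.7, 20.3, 9.25 and 17.0 CPM in Kaede-red libraries at 24h and the 26.5 to 42.7 CPM given above at 72h. All 72h libraries lay above all 24h libraries. The log2 fold change was 1.04 (SE 0.23, adjusted p = 0.00475), a 2.06-fold higher level, and the call was kept without any 1 of the 16 libraries (adjusted p = 0.00289 to 0.0315).

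Irf1 had 32.1, 37.1, 30.3 and 31.5 CPM in Kaede-red libraries at 24h and 53.2, 52.1, 44.5 and 51.5 CPM at 72h. The groups did not overlap, and the log2 fold change was 0.62 (SE 0.18, adjusted p = 0.0275). Stat2 had 48.0, 45.5, 28.7 and 33.7 CPM at 24h and 64.0, 60.04, 56.6 and 58.4 CPM at 72h. For Stat2 the log2 fold change was 0.62 (SE 0.19, adjusted p = 0.0335). For both genes the call was lost without Kaede-red replicate 3 or 4 at 24h or without Kaede-red replicate 1, 2 or 4 at 72h, with log2 fold changes of 0.52 to 0.63 in these fits. The call of Stat2 was also lost with RLE factors (0.57, adjusted p = 0.0508).

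Irf5 and Irf7 also had no overlap between Kaede-red cells at 24h and 72h, so that 5 of the 9 genes were separated upwards, against 11.8% of all tested genes. Irf5 had 26.1 to 46.8 CPM at 24h and 53.1 to 65.8 CPM at 72h, a log2 fold change of 0.73 (SE 0.25, adjusted p = 0.0648), and was called with no filter (adjusted p = 0.00972), with a minimum of 10 counts (0.0439) and in a fit of the Kaede-red groups alone (0.0141). A block that joined libraries of the same number at 24h and 72h called Irf5 too. Libraries of different times come from different tumours, so they are not pairs and this call adds no support. Irf7 had 91.2 to 152.8 CPM at 24h and 153.4 to 178 CPM at 72h, a log2 fold change of 0.44 (adjusted p = 0.200). Irf8, at 16.2 to 30.8 and 29.5 to 38.5 CPM, had 0.51 (adjusted p = 0.124), and Stat6, at 13.6 to 24.1 and 23.3 to 27.7 CPM, had 0.49 (adjusted p = 0.153). Irf9 and Socs1 had 0.19 and 0.34 (adjusted p = 0.654 and 0.531).

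The 24h libraries behind this comparison fell into pairs. Replicates 1 and 2, with the lower Rn45s share, had 43.4 and 46.8 CPM of Irf5, 28.2 and 30.8 CPM of Irf8 and 48.0 and 45.5 CPM of Stat2. Replicates 3 and 4 had 27.4 and 26.1 CPM of Irf5, 17.1 and 16.2 CPM of Irf8 and 28.7 and 33.7 CPM of Stat2. Irf1 differed little between the pairs. With replicates 3 and 4 left out, the log2 fold change from 24h to 72h was 0.71 for Stat3 (adjusted p = 0.286), 0.51 for Irf1 (0.420) and 0.32 for Stat2 (0.664). No gene of the 9 was then called, and the number called among all genes fell from 837 to 9 in a fit with 2 libraries in the 24h group.

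In Kaede-green cells the widest change between 24h and 72h among the 9 genes was that of Socs1. It had 7.90 to 17.2 CPM at 24h and 4.39, 3.36, 10.7 and 11.4 CPM at 72h, a log2 fold change of -0.68 with an SE of 0.34 (adjusted p = 0.584, unadjusted p = 0.0521). Irf9 had 0.33 (95% interval -0.15 to 0.80) and Irf7 -0.25 (-0.66 to 0.17). The other 6 genes had changes of 0.02 to 0.20, and in all 9 the libraries of both times overlapped.

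**Figure D3:**
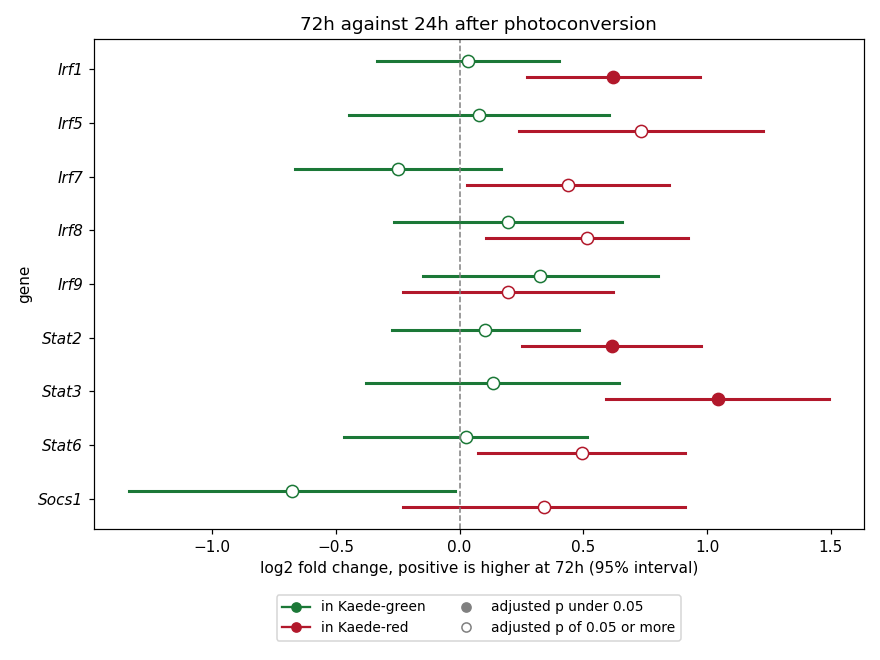
Log2 fold change of 72h against 24h after photoconversion (horizontal axis) for the 9 genes in Kaede-green (green) and Kaede-red cells (red), with 95% intervals as bars and filled points for an adjusted p under 0.05. The filled points are Irf1, Stat2 and Stat3 in Kaede-red cells, and no point in Kaede-green cells is filled.

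Whether the difference between the colours changed with time was tested directly as an interaction. No gene of the 9 was called, against 0.757% of all tested genes. For 4 genes the unadjusted p was under 0.05, as for 15.3% of all tested genes. Socs1 had an interaction of 1.02 on the log2 scale (SE 0.44, adjusted p = 0.261), Stat3 of 0.91 (SE 0.35, adjusted p = 0.191), Irf7 of 0.69 (adjusted p = 0.258) and Irf1 of 0.59 (adjusted p = 0.267). The calls at 1 time and not at the other are therefore not shown to differ between 24h and 72h.

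The Rn45s share moved with the colour. At 72h it was 79.0 to 91.0% in green and 55.8 to 73.8% in red libraries, with no overlap, so that the share and the colour cannot be told apart there. With the share as a covariate, Stat3 had a log2 fold change of 0.30 (SE 0.33) and Stat6 of 0.43 (SE 0.34) at 72h, and neither was called (adjusted p = 0.871 and 0.794). Over both times Stat3 then had -0.09 and Stat6 0.24, and the number of all genes called fell from 1959 to 156. In Kaede-red cells from 24h to 72h, Stat3 had 0.78 (adjusted p = 0.0897), and Irf1 and Stat2 each had 0.51 (adjusted p = 0.209 and 0.206). Socs1 at 24h was called in that fit too, with a log2 fold change of -1.56 (adjusted p = 0.0339).

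**Figure D4:**
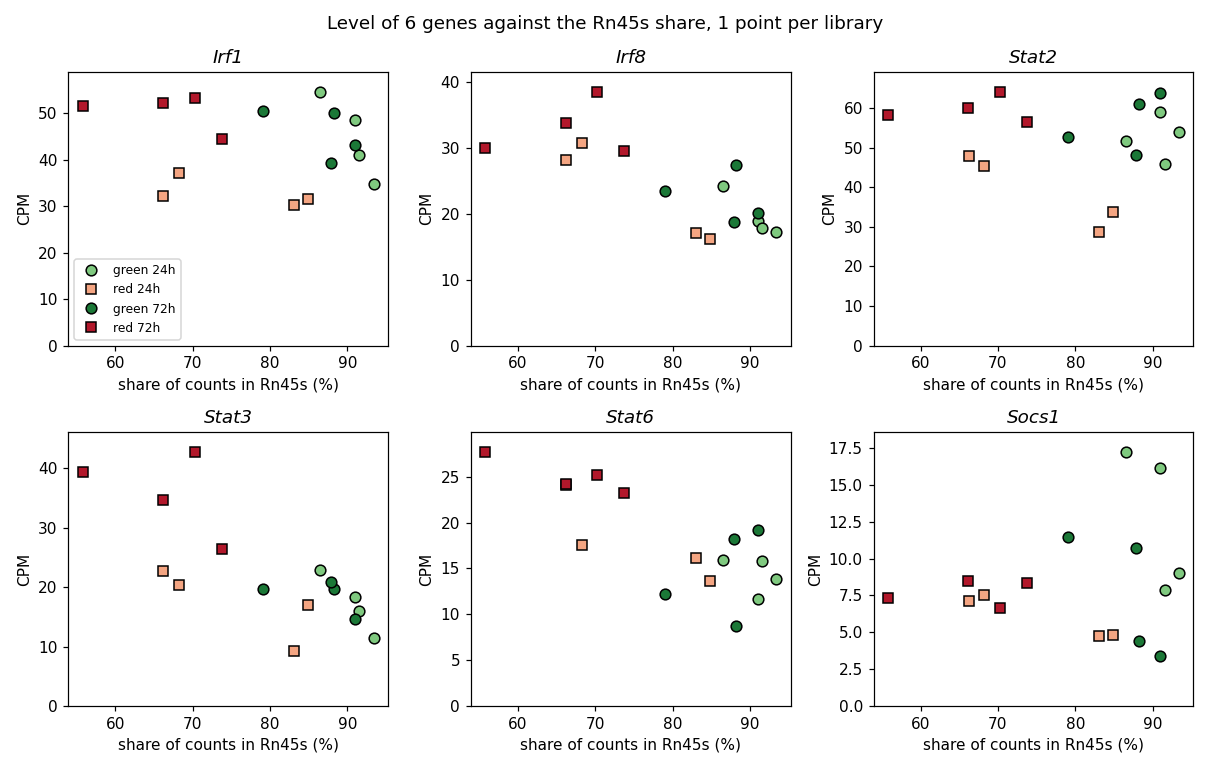
Level in CPM (vertical axis, from 0) of Irf1, Irf8, Stat2, Stat3, Stat6 and Socs1 against the share of reads in Rn45s in percent (horizontal axis) for the 16 libraries, with circles for Kaede-green and squares for Kaede-red cells. Kaede-red libraries at 72h (dark red) lie at 55.8 to 73.8% and Kaede-red libraries at 24h (light orange) at 66.2 to 84.9%.

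The share of each gene in the reads of the 9 genes does not depend on how libraries are scaled. Stat3 took 7.74 ± 1.38% of these reads (mean ± SD, n = 4) in Kaede-red cells at 72h, compared with 5.19 ± 0.915% in green cells at that time and 5.44 ± 1.37% in red cells at 24h. The ranges of both colours at 72h, 4.18 to 6.40% and 6.03 to 8.96%, overlapped. Those of Stat6 overlapped too, at 2.23 to 5.58% in green and 5.04 to 6.15% in red cells at 72h, and in red cells its mean was 5.45 ± 0.486% at 72h and 5.69 ± 0.910% at 24h. At 24h Socs1 took 3.27 ± 0.596% in green and 1.90 ± 0.0545% in red cells, and the ranges, 2.46 to 3.85% and 1.83 to 1.956%, did not overlap. At 72h Stat2 took 15.6 ± 1.90% in green and 12.9 ± 0.390% in red cells. Irf1 took 12.5 ± 0.523% and 10.9 ± 0.570% in the same groups, so their level relative to the other genes was lower in red than in green cells while their log2 fold changes were 0.08 and 0.14.

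The neighbours that overlap Stat3 and Stat6 were also measured. Stat5a, on the opposite strand beside Stat3, had 4 to 174 reads per library and a log2 fold change of 0.58 at 72h (adjusted p = 0.348). Nab2, beside Stat6, had 4 to 228 reads and 0.74 (adjusted p = 0.127). Neither passed the test, and reads of the neighbours within the counts of Stat3 and Stat6 were not separated.

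Other genes of both families were examined in the same fit. At 72h Stat5b, which transmits growth hormone and colony-stimulating factors, had 5.11 to 7.68 CPM in green and 10.4 to 12.1 CPM in red libraries (log2 fold change 0.83, SE 0.26, adjusted p = 0.0217). From 24h to 72h in Kaede-red cells Stat5b (0.77, adjusted p = 0.0340) and Irf2, a repressor of interferon genes (0.71, adjusted p = 0.0330), were higher. The Stat5b call at 72h was lost in 3 of 16 fits that left out 1 library, and over time in red cells the calls of Stat5b and Irf2 in 7 and 5. Without Kaede-red replicates 3 and 4 at 24h neither of the last pair was called (adjusted p = 0.581 and 0.654). Irf3, Irf4, Stat4 and Stat5a were called in no comparison, and the Kaede-green libraries held at most 22 reads of each of them.

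The genes of the surrounding pathway were described by lists of named members, and the counts below are to be read against the percentages of all tested genes given above for each comparison. With the Rn45s share as a covariate, 2 genes of these lists were called between the colours at 72h, Mrc1 and Retnla, and all other calls between the colours at 72h given below were lost. Of the ligands, 6 of 10 were tested. Il6 and Osm (oncostatin M), which both signal through STAT3, were lower in Kaede-red cells at both times. At 24h Osm had 28.2 ± 4.94 CPM in green and 8.77 ± 0.965 CPM in red cells (mean ± SD, n = 4), and at 72h 18.5 ± 5.04 and 9.70 ± 1.65 CPM. Il6 had 10.3 ± 3.92 and 0.631 ± 0.416 CPM at 24h, a log2 fold change of -3.96 (SE 0.51, adjusted p = 4.29e-06). Both calls were kept at both times in each of the 16 fits that left out 1 library. With the covariate they were kept at 24h and lost at 72h, where Osm had -0.74 (adjusted p = 0.518) and Il6 -0.94 (adjusted p = 0.779). Ebi3, a subunit of interleukin 27, was called higher at 72h (adjusted p = 0.0447), a call kept in 9 of these 16 fits.

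At 72h, 7 of the 16 receptors and JAK kinases were higher in red cells and none was lower, and their median log2 fold change was 0.39 against 0.03 over all genes. Il4ra, the receptor chain that acts through STAT6, had 32.2 ± 8.90 CPM in green and 67.7 ± 1.60 CPM in red cells (1.07, SE 0.21, adjusted p = 0.000475). Jak1, a kinase of both interferon receptors, had 20.4 ± 2.50 and 35.2 ± 2.92 CPM (0.79, adjusted p = 0.00460). These calls were kept in all 16 fits that left out 1 library, while those of Il2rg (0.76), lost without Kaede-green replicate 1 at 72h, and Csf2rb (0.82), lost without Kaede-green replicate 2 or 3 or Kaede-red replicate 1 or 4 at 72h, were not. With the covariate Il4ra had 0.46 (adjusted p = 0.677) and Jak1 0.47 (adjusted p = 0.684). At 24h only Il10rb (0.72, adjusted p = 0.0301) was higher and Il13ra1, a receptor chain for interleukin 13, was lower (-0.71, adjusted p = 0.0343), each call being kept in 10 of the 16 fits. Leaving out Kaede-red replicates 3 and 4, with 2 libraries then in that group, ended both calls with log2 fold changes of 0.81 and -0.58 (adjusted p = 0.0531 and 0.232). From 24h to 72h in red cells 4 were higher, among them Jak1 (0.78) and Csf2rb (1.04), and with those replicates left out the list had no call.

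Of 15 tested inhibitors of the pathway other than Socs1, Ptpn6, which encodes the phosphatase SHP-1, was higher at 72h (0.74, SE 0.21, adjusted p = 0.0108), a call lost only without Kaede-green replicate 3 at 72h, and none was lower. None was called at 24h. Socs3, which is induced by STAT3 and inhibits its receptors, and Ptpn1 were higher in red cells at 72h than at 24h (0.63 and 0.81, adjusted p = 0.0421 and 0.0226), and both calls were lost without Kaede-red replicate 3 or 4 at 24h and in further fits that left out 1 library, 10 of 16 for Socs3 and 5 of 16 for Ptpn1 in all. Usp18, an inhibitor of type I interferon signalling, was lower in Kaede-red cells over both times (-0.38, adjusted p = 0.0394), a call kept in 4 of 16 fits that left out 1 library.

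At 72h, 6 of 17 tested sensors and adaptors that lie upstream of IRFs were higher in red cells and none was lower (median 0.67). Tlr9, a receptor for DNA, had 24.0 ± 14.4 CPM in green and 73.6 ± 12.3 CPM in red cells (1.61, SE 0.29, adjusted p = 0.000131). The RNA sensors Ddx58 (0.74, adjusted p = 0.00424) and Ifih1 (0.67, adjusted p = 0.0136) were also higher. Among the 6, the calls lost when 1 library was left out were that of Ifih1, without Kaede-green replicate 1 at 72h (adjusted p = 0.0591), and that of Irak1, a kinase below Toll-like receptors, kept in 10 of the 16 fits. At 24h none of the 17 was called, and Tlr9 had 25.3 ± 10.1 and 26.6 ± 7.40 CPM. With the Rn45s share as a covariate none was called at 72h.

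The 18 type I interferon target genes did not move one way. At 24h 5 were lower in red cells and 1, Ifi44, was higher, and the median was -0.34. Isg15, a ubiquitin-like protein, had 208 ± 26.6 CPM in green and 103 ± 4.58 CPM in red cells (-1.01, SE 0.19, adjusted p = 0.000654), and Cmpk2 and Rtp4 had -0.97 and -0.79. Without Kaede-red replicates 3 and 4, Isg15 was the only gene of this list called at 24h. At 72h Isg15 (-0.92) and Rtp4 (-0.75) were lower while Ifi204 (0.68), Ifit1 (0.74) and Oasl2 (0.63) were higher. The calls of Isg15 and Rtp4 were kept in all 16 fits that left out 1 library at both times, and those of Ifi204, Ifit1 and Oasl2 in 14, 13 and 10 of them. Ifit1, which binds viral RNA, was higher at 72h than at 24h in red cells (0.91, adjusted p = 0.0115), except without Kaede-red replicate 3 or 4 at 24h, and was the only gene of all lists with a called interaction.

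Of 16 interferon γ target genes, Cxcl10 (-1.02, SE 0.22, adjusted p = 0.00273), Gbp2 (-0.75) and Nlrc5 (-0.65) were lower in red cells at 24h and none was higher. Cxcl10, a chemokine for T cells, had 124 ± 12.5 CPM in green and 61.2 ± 9.91 CPM in red cells. At 72h Cxcl9 (0.85) and Irgm1 (0.63) were higher. In red cells Gbp2 (1.13, adjusted p = 0.00297), Gbp5 (1.11) and Cxcl9 (0.98) were higher at 72h than at 24h. The calls of Cxcl10 at 24h and of Gbp2 and Gbp5 over time were kept without any 1 library, while those of Gbp2 and Nlrc5 at 24h were kept in 8 and 2 of the 16 fits. Without Kaede-red replicates 3 and 4 at 24h, none of the 16 was called at 24h or from 24h to 72h.

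At 24h, 5 of 11 tested STAT3 target genes were lower in red cells and none was higher (median -0.66). These were Nfil3 (-1.21, SE 0.21, adjusted p = 0.000319), Cebpb (-0.88), Pim1 (-0.82), Junb (-0.81) and Fos (-0.66), and Junb and Fos are also immediate early genes. The calls of Nfil3, Cebpb and Pim1 were kept without any 1 library, those of Junb and Fos in 14 and 6 of the 16 fits. Without Kaede-red replicates 3 and 4 only Nfil3 was called (-1.03, adjusted p = 0.0199). At 72h Mcl1 was lower (-0.51, adjusted p = 0.0436, kept in 5 of the 16 fits) and the other 10 were not called. Whether these genes follow Stat3 was not tested. In red cells from 24h to 72h, Socs3 was the only gene of this list called.

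Among 10 tested STAT6 target genes, 5 were higher in red cells at the early and 4 at the late time, and Chil3 was lower at 24h. Retnla and Ccl22 (3 to 54 reads in Kaede-red libraries) had no read in Kaede-green libraries. They passed the filter through Kaede-red cells alone and could not be called lower there. The counts of this list are therefore not comparable with the shares over all genes. Mrc1, which encodes the mannose receptor CD206, had at 24h 19.5 ± 6.59 CPM in green and 47.3 ± 6.37 CPM in red cells (log2 fold change 1.29, adjusted p = 0.000998). At 72h it had 12.3 ± 4.34 and 41.1 ± 10.2 CPM (1.73, adjusted p = 1.11e-05). Its call was kept with the Rn45s share as a covariate at both times (adjusted p = 0.0307 and 0.0126). Retnla had no read in any Kaede-green library and 26 to 537 reads in Kaede-red libraries. At a floor of 3 reads over the green group, it was at least 12.5-fold higher at 24h, 30.0-fold at 72h and 46.7-fold over both times. Arg1, which encodes arginase 1, was higher in red cells at 24h (1.18, adjusted p = 0.00783) and lower in red cells at 72h than at 24h (-1.46, adjusted p = 0.00168). The first of these calls was lost without Kaede-green replicate 3 at 24h (adjusted p = 0.0553). Chil3, a chitinase-like protein, had at 24h 100.1 ± 38.9 CPM in green and 21.9 ± 9.41 CPM in red cells (-2.20, adjusted p = 8.75e-05), and in red cells it was higher at 72h than at 24h (1.05, adjusted p = 0.0457, kept in 5 of the 16 fits). Stat6 itself had overlapping levels at 24h, where these target genes differed.

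In the list named partners of IRF8 and IRF4, with 8 genes, Id2 was higher in red cells at 24h (1.57, SE 0.26, adjusted p = 0.000127). It was also higher at 72h (0.74, adjusted p = 0.0327, kept in 11 of the 16 fits). Id2 encodes an inhibitor of helix-loop-helix factors and is not itself read here as a partner of either. Cebpa was called over both times and at 24h (1.29, adjusted p = 0.0240, kept in 12 of the 16 fits). In red cells Id2 was lower at 72h than at 24h (-0.76, adjusted p = 0.0297), a call lost without Kaede-red replicate 3 or 4 at 24h or any 1 Kaede-red library at 72h. Spi1, Runx1, Klf4, Batf, Batf2 and Batf3 were called in no comparison.

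**Figure D5:**
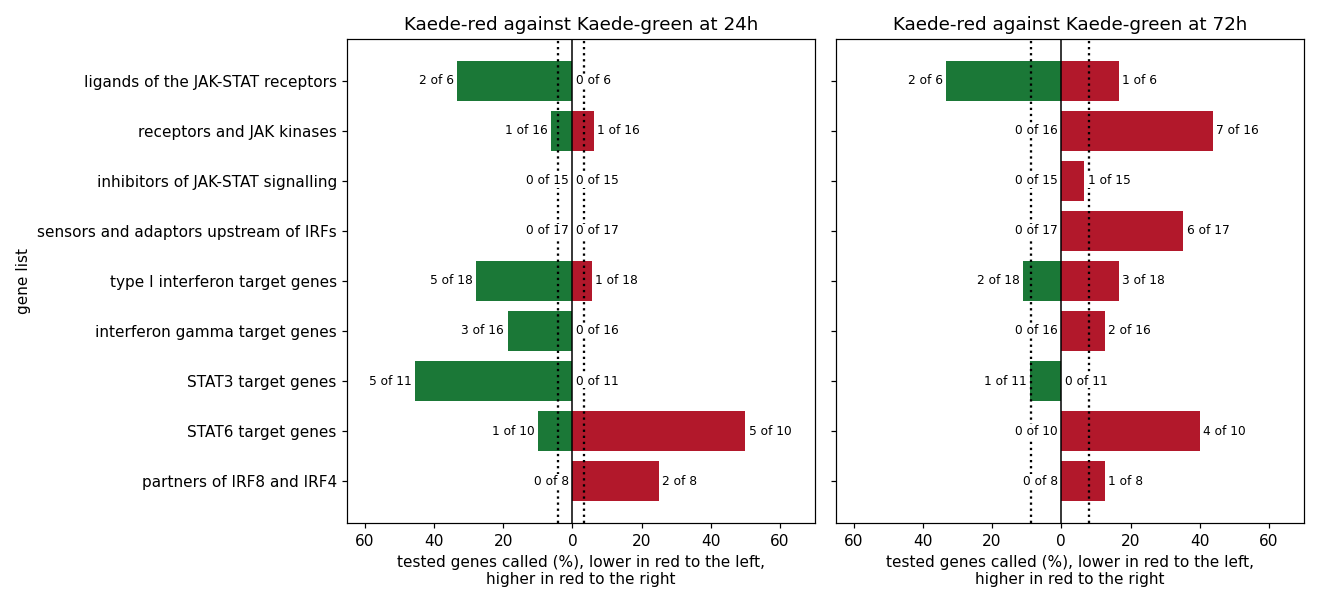
Share of the tested genes of each pathway list that were called lower (bars to the left) or higher (bars to the right) in Kaede-red than in Kaede-green cells at 24h and 72h, in percent, with the counts printed at the bars and dotted lines at the shares over all 9642 tested genes. At 72h 7 of 16 receptors and JAK kinases and 6 of 17 sensors and adaptors were higher, and at 24h 5 of 11 STAT3 target genes were lower. The STAT6 target genes hold Retnla and Ccl22, which passed the filter through Kaede-red cells alone.

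Across the 16 libraries, the genes whose log2 CPM followed each of the 9 most closely were sought among tested genes with a mean log2 CPM of at least 4. These values share the libraries and their scaling, so they are given as a description. Irf7 was closest to Zbp1 (Pearson's r = 0.93), Rsad2 and Coro1a, and Stat2 to Slfn5 (0.94), Ifit3b and Bach1. Irf8 was closest to Mpeg1 (0.95), Hcls1 and Tgfbi, and Irf1 to Sorl1 (0.94), H2afy and Zyx. Irf5 was closest to Flna (0.92), Dpysl2 and Rasa3, and Stat3 to Copa (0.92), Prkcd and Flna. Irf9, Stat6 and Socs1 had weaker nearest genes, Clic1 (0.85), Qk (0.85) and Ly6c2 (0.87). Among the 9 genes, Irf5 and Stat3 had an r of 0.84, Irf8 and Stat3 of 0.84 and Irf1 and Stat6 of 0.06.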

How the data were processed

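Total RNA of sorted CD11b+ cells was sequenced in 16 libraries, made from 5 ng of RNA with a stranded kit that does not select polyadenylated RNA. Per the labels and the study's methods, the authors trimmed reads (Trim Galore, FastQC), aligned them to mm10 (HISAT2) and counted them per gene (featureCounts). Versions, strand setting and annotation are not given in the sources used here. The deposited values are raw counts per gene, with no normalisation, and the combined table held the same counts as the 16 library files. No column of counts was left unused.

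Genes with low counts were removed (edgeR 4.0.16 in R 4.3.3, filterByExpr with default settings), and libraries were scaled by TMM. A quasi-likelihood model with 1 mean per group was fitted to all 16 libraries, with Benjamini-Hochberg adjustment over the 9642 genes tested and a threshold of 0.05. A standard error is the size of the log2 fold change divided by the square root of F, and 95% intervals assume a normal distribution. The fit was tested on simulated counts, in which 200 genes were changed by 1 to 2 on the log2 scale. It recovered 55 to 79.5% of them in the comparisons of groups and 26.5% in the interaction. Of the genes called, 3.17 to 8.33% were unchanged ones. The simulated libraries were independent and held no difference in Rn45s tied to colour, so these shares need not hold for the data. Log2 CPM used a prior count of 2. Lengths and positions came from GENCODE vM21 and promoters from RefSeq. Total counts were 3216858 to 15423085 per library, of which 468092 to 5472477 lay outside Rn45s. The reads outside Rn45s limit the precision of low genes such as Socs1, and intervals cover the spread between libraries. No 2 libraries of a group agreed within sampling noise.

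The 9 genes and the pathway lists were chosen with earlier results of these data known, and a list of target genes is not independent evidence of a factor's activity. From each list, up to 4 called genes per direction and comparison with a mean log2 CPM of at least 4 and the widest change were named. Genes named below that level (Osm, Il6, Ebi3, Ifi44, Retnla, Cebpa, Stat5b) or to complete a small count were chosen after their values were seen. Alternatives were DESeq2 1.42.0, other scaling, other filters, Rn45s left out or its share as a covariate, fits on the groups compared alone, a replicate block and leaving out libraries. No sequence of a protein was used here. Some genes of both families and 1 marker are not reported here.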

Additional observations from a re-analysis of the deposited data

Results flagged for a closer look

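Ifit1, which encodes an interferon-induced protein that binds viral RNA, was noted because the difference between Kaede-red and Kaede-green cells changed between 24h and 72h in a test of that change itself. The interaction was 1.33 on the log2 scale (SE 0.33, edgeR adjusted p = 0.0482), from 58.1 ± 15.2 CPM in green and 38.5 ± 15.2 CPM in red cells at 24h to 43.5 ± 9.25 and 72.5 ± 2.78 CPM at 72h (mean ± SD, n = 4). It was the 1 gene called of the 18 type I interferon target genes. The call was kept in 2 of 16 fits that left out 1 library, with adjusted p-values of up to 0.127. It was lost with the Rn45s share as a covariate (1.27, adjusted p = 0.0602) and without Kaede-red replicates 3 and 4 at 24h (0.93, adjusted p = 0.441). Among the 9 genes in the 4 groups, none of the 36 sets of 4 libraries held a library set apart from the other 3 by more of the range than Dixon's critical value allows, and the widest gap was 0.811 of the range.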

How the results depend on the processing

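Of 1386 values of single genes under alternatives, 1221 kept their direction and their side of the threshold. Another 78 changed direction, whether or not they also crossed the threshold. Among values that kept their direction, 34 newly passed the threshold and 53 no longer passed it. The causes were not tested. Over both times 2 genes were called, compared with 1 with DESeq2, 1 with RLE factors, 1 with Rn45s left out, 9 with library totals alone, 0 with the Rn45s covariate, 3 with no filter, 3 with a minimum of 10 counts, 3 without Kaede-red replicates 3 and 4 at 24h, and 0 to 3 without any 1 library. At 24h 1 gene was called, compared with 2 with DESeq2 (Irf1, -0.46, adjusted p = 0.0309, besides Socs1), 9 with library totals alone, 0 with no filter, 0 with a minimum of 10 counts, 0 without the pair of Kaede-red libraries and 0 to 1 without any 1 library. At 72h 2 were called, compared with 9 with library totals alone, 4 with no filter, 3 with a minimum of 10 counts, 3 with the groups compared alone, 3 without the pair, 0 with the covariate and 1 to 2 without any 1 library. In Kaede-red cells over time 3 were called, compared with 0 with library totals alone, 2 with RLE factors, 4 with no filter, 4 with a minimum of 10 counts, 4 with the groups compared alone, 0 with the covariate, 0 without the pair and 1 to 4 without any 1 library.

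Library totals alone moved the median log2 fold change of all genes to 2.22 over both times and turned the direction of Irf1 (1.98), Irf7 (2.11), Stat2 (2.04) and Socs1 (1.57) over both times and of Irf1 (1.85), Irf5 (2.26), Irf7 (1.96), Stat2 (1.98) and Socs1 (1.31) at 24h. In Kaede-green cells over time it turned Irf7 (0.45) and Socs1 (0.13), and in the interaction Irf8 (-0.13). The Rn45s covariate turned Irf5 (-0.40), Irf8 (-0.080) and Stat3 (-0.089) over both times, Irf8 (-0.20) and Stat3 (-0.47) at 24h, Irf1 (-0.11), Irf5 (-0.14), Irf7 (-0.21), Stat2 (-0.20) and Socs1 (-0.66) at 72h, and Irf1 (-0.017), Irf5 (-0.056) and Stat6 (-0.036) in Kaede-green cells over time. Socs1 at 72h, near 0, became -0.036 with DESeq2, -0.046 with RLE factors, -0.0070 with a minimum of 10 counts, -0.040 with Rn45s left out, -0.041 with the groups compared alone and -0.0065 without the pair. Stat6 in Kaede-green cells became -0.00077 with DESeq2, -0.00082 with RLE factors and -0.00175 with Rn45s left out. Irf7 over both times became 0.075 with no filter, 0.023 with a minimum of 10 counts and 0.10 without the pair, and Irf5 at 24h became 0.0012, 0.034 and 0.25. Stat3 at 24h became -0.0063 with the groups compared alone, and Irf8 in the interaction -0.056 without the pair.

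Leaving out each library in turn moved values across 0 for Irf7 over both times (-0.128 to 0.0457), Irf5 (-0.347 to 0.179) and Stat3 (-0.129 to 0.215) at 24h, and Socs1 (-0.263 to 0.287), Irf9 (-0.00555 to 0.294) and Stat2 (-0.000833 to 0.128) at 72h. In Kaede-green cells over time it did so for Irf1 (-0.0823 to 0.132), Irf5 (-0.182 to 0.338), Stat3 (-0.0293 to 0.292) and Stat6 (-0.135 to 0.173), and in the interaction for Irf9 (-0.366 to 0.0467). None of these genes was called in these comparisons in any of the 16 fits.

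A replicate block, which treats libraries of the same number as pairs, called 2 genes over both times, 1 at 24h, 4 at 72h (Irf5, Irf8, Stat3 and Stat6), 0 over time in green and 4 in red cells, and 0 in the interaction. For the changes over time it joined libraries of the same number at 24h and 72h, which come from different tumours and are not pairs. Under the block Stat3 at 24h became -0.029. Deviations of green and red libraries of the same number from their group means correlated by -0.045 to 0.343 at 24h and -0.050 to 0.217 at 72h, and those of different numbers by -0.372 to 0.346 and -0.269 to 0.210. In the order of the numbers, the pairs of the same number had -0.045, 0.343, 0.162 and 0.269 at 24h. At 72h they had 0.217, -0.0063, 0.060 and -0.050, and not every library correlated best with its own number. These values cannot decide whether the numbers pair the libraries, and the main fit left them unpaired.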
